A study of Homo sapiens with 9 samples.

Results

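Inflammatory cytokines and chemokines are small secreted proteins that draw in leukocytes and switch neighbouring cells to an inflammatory or growth programme. The genes described here were IL6, LIF, IL1A, IL1B, CXCL1, CXCL2, CXCL3, CXCL8, CCL2 and GDF15, taken by symbol from the transcript tables, which gave 10 of 60966 genes. The value of a gene was the sum of its transcripts in FPKM, that is, fragments per kilobase of transcript, scaled to the size of the library.

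H1299 is a human lung cancer cell line, and all 9 samples came from it. In each of 3 samples per group, the cells were transfected with a Scramble siRNA or with one of a pair of siRNAs against FIBP, Si-FIBP#1 and Si-FIBP#2. Cells were collected after 48 h, and poly(A) RNA was sequenced in order to look for genes downstream of FIBP. The labels name no separate cultures, so p-values measure only the spread between these samples, which may be technical.

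CXCL1, CXCL2, CXCL3 and CXCL8 are chemokines that attract neutrophils through the receptors CXCR1 and CXCR2, and their genes lie in one cluster on chromosome 4. CCL2 attracts monocytes. IL1A and IL1B encode the interleukin 1 ligands, which act through IL1R1 and IL1RAP and turn on NF-kB, a family of transcription factors that in turn drives many cytokine and chemokine genes. IL6 and LIF belong to one ligand family that signals through the shared receptor chain IL6ST (gp130) to STAT3, and GDF15 is a stress-induced member of the TGF-beta family that signals through GFRAL.

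The promoter windows of the 4 CXC genes and of IL6 are shown because each holds a run of letters of the kappaB kind, the DNA element that NF-kB binds. Each window is the 120 bases before the RefSeq transcription start in GRCh38.p14, written 5′ to 3′ on the strand of the gene, and the capitals mark that run.
CXCL1 (chr4:73869273-73869392, + strand): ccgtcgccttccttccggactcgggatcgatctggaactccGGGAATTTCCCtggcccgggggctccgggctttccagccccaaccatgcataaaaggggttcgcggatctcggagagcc
CXCL2 (chr4:74099196-74099315, - strand): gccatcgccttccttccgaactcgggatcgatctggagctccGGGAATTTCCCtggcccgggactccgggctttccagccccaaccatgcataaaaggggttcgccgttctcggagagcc
CXCL3 (chr4:74038690-74038809, - strand): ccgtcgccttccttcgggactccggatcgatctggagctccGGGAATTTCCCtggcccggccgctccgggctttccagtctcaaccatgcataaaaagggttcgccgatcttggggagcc
CXCL8 (chr4:73740449-73740568, + strand): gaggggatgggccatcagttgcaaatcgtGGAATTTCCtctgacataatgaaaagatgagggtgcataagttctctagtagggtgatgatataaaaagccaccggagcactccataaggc
IL6 (chr7:22727080-22727199, + strand): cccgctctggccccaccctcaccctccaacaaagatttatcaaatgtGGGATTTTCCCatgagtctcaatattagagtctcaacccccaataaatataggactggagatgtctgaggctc

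In CXCL1 and CXCL3 the capitals began 79 bases before the start, in CXCL2 78, in CXCL8 91 and in IL6 73. The windows of CXCL1 and CXCL2 were identical at 113 of 121 aligned columns (93.4%), whereas CXCL2 and CXCL8 were identical at 46.4% of columns. The capitals were read from the RefSeq promoters themselves. GGAATTTCC is the longest run common to those of the 4 CXC genes, and GGGANTTTCCC, in which N is any base, is the longest that IL6 shares with CXCL1, CXCL2 and CXCL3 when 1 letter may differ. That each of these 5 genes holds either or both is therefore by construction. The promoter of CXCL8 lacks the longer run and that of IL6 the shorter. On either strand, GGGANTTTCCC was found in 75 of 35116 RefSeq promoters of 300 bases (0.214%), and GGAATTTCC, which overlaps it in CXCL1, CXCL2 and CXCL3, in 162 (0.461%). Neither was found in the promoters of GDF15, IL1A or IL1B. A match describes letters and is no evidence of binding.

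The genes divided by level into 4 that could be tested and 6 that could not. Ranked in Scramble cells, CXCL2 stood above 98.2% of all 60966 genes, LIF above 86.6%, CXCL1 above 84.1% and GDF15 above 80.4%. CXCL3, CXCL8, IL1A, IL1B and CCL2 never reached 1 FPKM in any sample, and IL6 was listed at 0 throughout. A gene was tested when 3 or more of the 9 samples had 1 FPKM or more, as 14985 genes did. GDF15 met this through its Scramble and Si-FIBP#2 samples only, being below 1 FPKM in every Si-FIBP#1 sample. Its fall after Si-FIBP#1 and its difference between the siRNAs are therefore not independent of the filter.

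**Figure D1:**
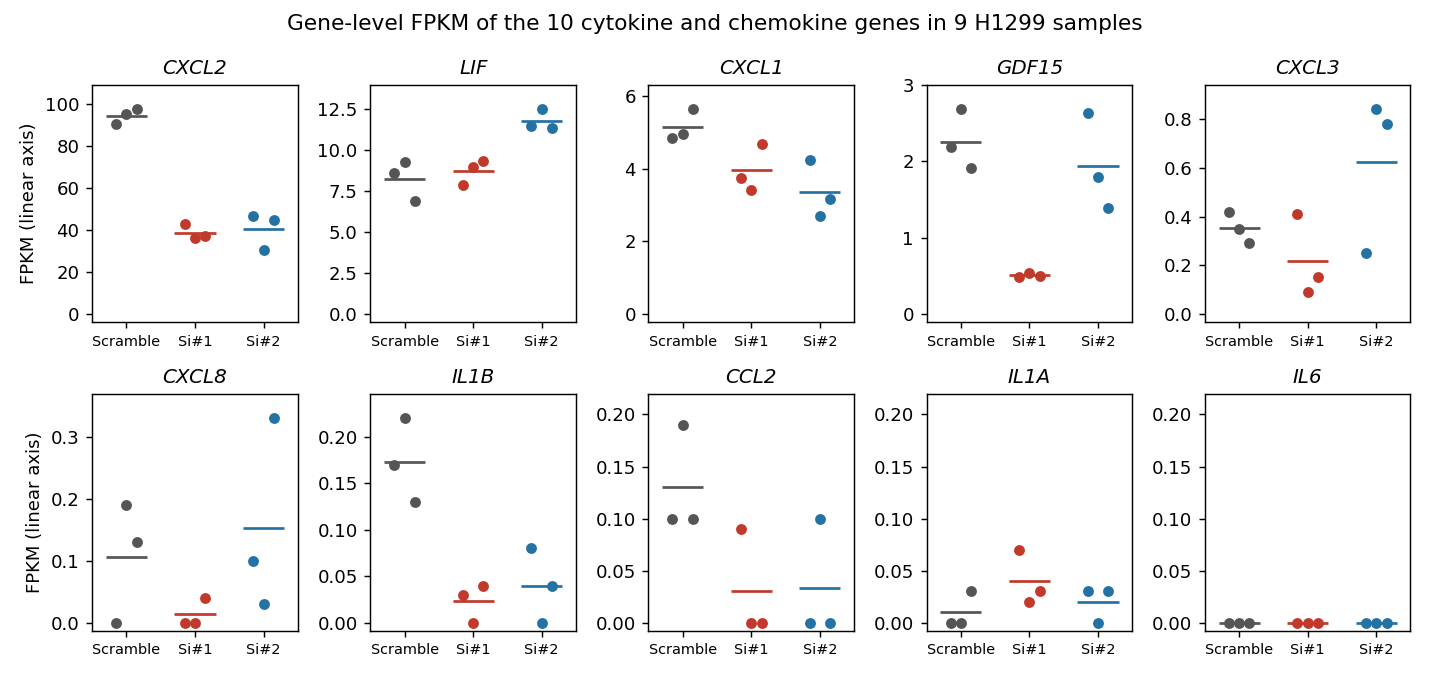
FPKM of each of the 10 genes in each of the 9 samples (points) with the group mean (line), one panel per gene with its own linear axis, for Scramble, Si-FIBP#1 (Si#1) and Si-FIBP#2 (Si#2). CXCL2 lies between 90.5 and 97.5 FPKM in Scramble and between 30.4 and 46.6 FPKM in the 6 depleted samples, GDF15 as a gene sum lies wholly below Scramble only after Si-FIBP#1, and the bottom row stays below 0.4 FPKM.

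FIBP itself fell to 7.96% (Si-FIBP#1) and 8.66% (Si-FIBP#2) of its Scramble mean, so both labels fit the target. The coding transcript with the highest Scramble value, ENST00000357519, fell to 0.90% and 1.03%. Transcripts assembled from the reads made up 5.67% to 57.2% of the FIBP value across samples. Depth, estimated from the steps between low FPKM values, was 20050000 to 23950000 fragments per sample. Of the leukocyte markers, 8 of 9 were below the filter. Of these, ITGAM was highest, at 0.46 to 0.83 FPKM, CD14 reached at most 0.41 and PTPRC 0.27 FPKM, and CD3E and MS4A1 were at 0. The marker that passed, CD68, a lysosomal protein that other cells also make, rose with both siRNAs. CD68 was at 31 to 33.01 FPKM in Scramble, 37.6 to 40.3 after Si-FIBP#1 and 50.9 to 66.96 after Si-FIBP#2, with log2 changes of 0.27 (adjusted p = 0.0387) and 0.90 (adjusted p = 5.5e-05) and a difference between the siRNAs of 0.63 (adjusted p = 0.0028). The change after Si-FIBP#1 did not pass when any one Scramble or Si-FIBP#1 sample was left out (adjusted p 0.063 to 0.112), and that after Si-FIBP#2 was 1.02 without Si-FIBP#2 replicate 2. None of 6 endothelial and fibroblast markers passed the filter, so none was tested. COL1A1, a collagen of fibroblasts that is named here after its values were seen, was at 0.03 to 0.14 FPKM in Scramble, 0.35 to 1.15 after Si-FIBP#1 and 0.70 to 1.59 after Si-FIBP#2, all above Scramble. COL1A2, which encodes the partner chain of COL1A1, was at 0 in 8 of 9 samples and at 0.02 FPKM in the other, DCN reached 1.42 FPKM, and PECAM1, VWF and CDH5 did not exceed 0.20 FPKM. KRT18, an epithelial keratin, was at 467 to 483 FPKM in Scramble and 143 to 226 FPKM after depletion. KRT8, VIM and KRT7, the other H1299 and epithelial markers, also had lower means. KRT8 went from 107 FPKM in Scramble to 73.4 after Si-FIBP#1 and 75.9 after Si-FIBP#2. VIM went from 3232 to 2307 and 1988, and KRT7, which overlapped Scramble after Si-FIBP#2, from 8.33 to 6.33 and 6.39. The part of CD68, COL1A1, KRT18 or the other markers in the cytokine results was not tested. In bulk RNA, fewer cells of a kind and less RNA per cell cannot be told apart.

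Below, a gene is called when its adjusted p in limma is under 0.05 and its fold change is over 2, the limits given in the methods of the study; rose and fell are used for an adjusted p under 0.05 alone. Fold changes were computed on log2(FPKM + 1), so those of low genes come out too small. After Si-FIBP#1, 2 of the 4 tested cytokine genes were called lower (CXCL2 and GDF15) and none higher, against 3.11% lower and 2.55% higher among all genes tested. The Si-FIBP#1 counts and median in this paragraph include GDF15. It met the filter only through the groups where it was higher, so they are not independent of the filter. After Si-FIBP#2, 1 was called lower (CXCL2), against 2.13% lower and 2.92% higher among all genes. At an adjusted p under 0.05 alone, Si-FIBP#1 gave 2 lower and 0 higher, against 19.9% and 27.8% of all genes. Si-FIBP#2 gave 2 lower and 1 higher, against 17.7% and 31.1%. In 3 of the 4 genes (CXCL1, CXCL2, GDF15) all Si-FIBP#1 samples lay below all Scramble samples, as in 24.3% of all genes. For Si-FIBP#2 this held for CXCL1 and CXCL2, against 21.2%, and LIF lay wholly above, against 36.1%. Both comparisons share the Scramble samples. The median log2 change of the 4 genes was -0.71 after Si-FIBP#1 and -0.34 after Si-FIBP#2, beside 0.073 and 0.11 over all genes.

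**Figure D2:**
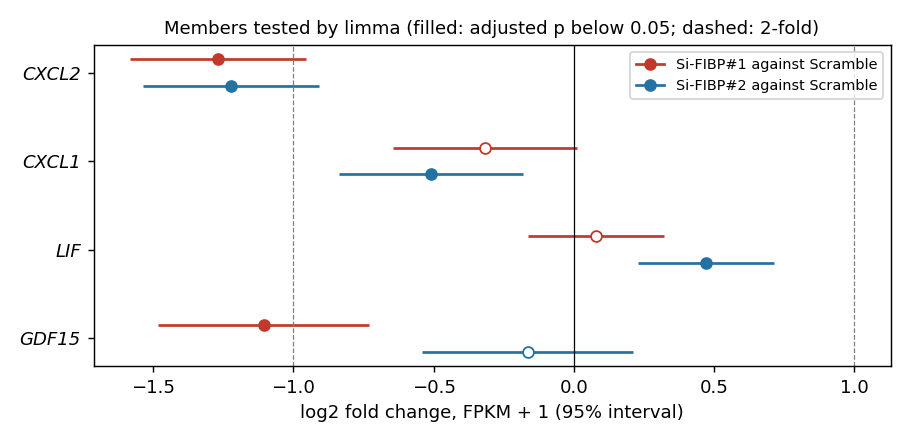
log2 fold change on the FPKM + 1 scale of the 4 tested genes against Scramble, with the 95% interval of the limma fit (bars), for Si-FIBP#1 and Si-FIBP#2; filled points have an adjusted p below 0.05 and dashed lines mark 2-fold. CXCL2 is past 2-fold with both siRNAs, GDF15 only after Si-FIBP#1, and LIF is above 0 after Si-FIBP#2.

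CXCL2 (ENSG00000081041, chr4:74097035-74099293, - strand, GRCh38 in GENCODE release 29) fell strongly with both siRNAs. Its FPKM was 90.5, 95.2 and 97.5 in the Scramble samples. After Si-FIBP#1 it was 42.8, 36.1 and 37.05. After Si-FIBP#2 it was 46.6, 30.4 and 44.6. No depleted sample came near a Scramble sample, and the lowest value belonged to Si-FIBP#2 replicate 2. The mean went from 94.4 ± 3.59 (SD, n = 3) to 38.7 ± 3.61 and 40.5 ± 8.84 FPKM, which is 41.0% and 43.0% of Scramble. The log2 change was -1.27 (SE 0.14, adjusted p = 7.7e-05) after Si-FIBP#1. It was -1.22 (SE 0.14, adjusted p = 1.0e-04) after Si-FIBP#2. The siRNAs differed by 0.047, with a 95% interval of -0.27 to 0.36 (adjusted p = 0.865).

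The fall of CXCL2 was carried by its coding transcript and by assembled transcripts, which the authors' tables add to the Ensembl ones. The coding transcript ENST00000508487 went from 42.1 ± 1.44 FPKM in Scramble to 17.5 ± 2.82 after Si-FIBP#1 and 16.2 ± 3.6 after Si-FIBP#2 (SD, n = 3). In a fit over transcripts, its log2 change was -1.23 (adjusted p = 0.00106) and -1.35 (adjusted p = 7.6e-04), where 2.99% and 2.26% of 47662 transcripts were called lower. The 6 assembled transcripts, each longer than the 2259 nt of the annotated gene, fell as a sum to 32.1% and 40.5% of Scramble. They made up 37.8% to 51.7% of the CXCL2 value. A non-coding transcript, ENST00000296031, was at 3.38 to 5.93 FPKM and gave log2 differences of 0.16 (interval -0.29 to 0.60) and 0.063 (interval -0.38 to 0.51), neither past the test. Of its stretches of 100 bases, 16.5% also occur in a CXCL3 transcript, whereas none of the coding transcript's do. With Ensembl transcripts alone the change after Si-FIBP#1 was -0.98 (adjusted p = 5.1e-04), just under 2-fold.

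**Figure D3:**
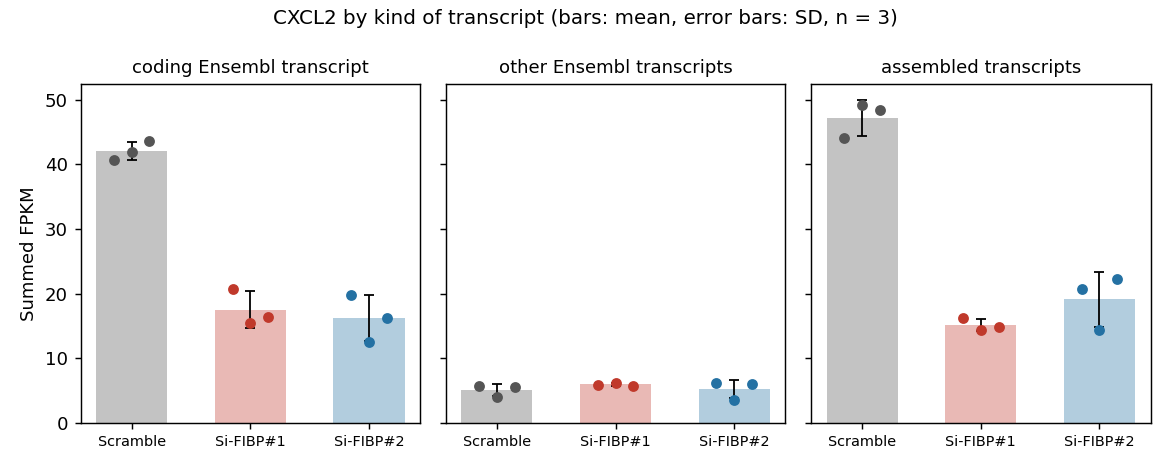
Summed FPKM of CXCL2 by kind of transcript (coding Ensembl, other Ensembl, assembled from the reads) in Scramble, Si-FIBP#1 and Si-FIBP#2; bars are means, error bars SD (n = 3) and points single samples, on a linear axis from 0. The coding and the assembled transcripts are lower in all 6 depleted samples, and the other Ensembl transcripts stay between 3.55 and 6.23 FPKM.

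CXCL1 (ENSG00000163739, chr4:73869393-73871242, + strand), the close relative of CXCL2, moved less. It was at 4.86, 4.96 and 5.64 FPKM in Scramble. After Si-FIBP#1 it was at 3.74, 3.43 and 4.70 FPKM. After Si-FIBP#2 it was at 4.25, 2.69 and 3.16 FPKM. All 6 depleted samples lay below all 3 Scramble samples, although by as little as the step from 4.70 to 4.86. On the log2 scale the change was -0.51 (SE 0.15, adjusted p = 0.0166) after Si-FIBP#2. After Si-FIBP#1 it was -0.32, with an interval of -0.65 to 0.0095 (adjusted p = 0.10). The difference between the siRNAs was -0.19 (adjusted p = 0.431), and it was -0.33 without Si-FIBP#2 replicate 1, -0.077 without Si-FIBP#2 replicate 2 and -0.085 without Si-FIBP#1 replicate 3, none past the test. Without Scramble replicate 3 the change after Si-FIBP#2 had an adjusted p of 0.059, without Si-FIBP#2 replicate 2 of 0.055, and without the filter on low values of 0.0508. One assembled transcript of 2554 nt, longer than the 1850 nt gene, supplied 92.7% to 100% of the value. The annotated transcript reached at most 0.41 FPKM, so CXCL1 could not be tested on Ensembl transcripts alone.

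The other chemokine genes were near the floor. CXCL3 (chr4:74036589-74038807, - strand) was at 0.42, 0.35 and 0.29 FPKM in Scramble, and its 9 values corresponded to about 2.86 to 10.1 fragments. Si-FIBP#1 samples were at 0.41, 0.09 and 0.15, and those of Si-FIBP#2 at 0.25, 0.84 and 0.78 FPKM. Both groups overlapped Scramble. CXCL8 (chr4:73740506-73743716, + strand), which encodes interleukin 8, never exceeded 0.33 FPKM, and no sample held more than about 5.86 fragments of it. CCL2 (chr17:34255218-34257203, + strand) reached 0.19 FPKM, about 1.98 fragments. Without the filter on low values, the adjusted p of these 3 genes ran from 0.147 to 0.772 in limma for either siRNA against Scramble and from 0.0909 (CCL2) to 0.857 for both together, and none passed the test at this depth.

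The interleukin 1 ligands were equally scarce. IL1B (chr2:112829751-112836903, - strand) was at 0.17, 0.22 and 0.13 FPKM in Scramble, after Si-FIBP#1 at 0.03, 0 and 0.04, and after Si-FIBP#2 at 0.08, 0 and 0.04. These values stand for about 1, 3 and 1 fragments in Scramble and at most 1 in a depleted sample. Without the filter on low values, limma gave IL1B a log2 change of -0.20 (adjusted p = 0.0104) and -0.17 (adjusted p = 0.0175), values that rest on those few fragments. IL1A (chr2:112773915-112784590, - strand) never exceeded 0.07 FPKM.

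In the interleukin 6 family, LIF was measurable and IL6 was not. LIF (ENSG00000128342, chr22:30240447-30246851, - strand), a cytokine known for sustaining stem cells, was at 8.60, 9.27 and 6.86 FPKM in Scramble. Under Si-FIBP#1 the values were 7.86, 8.97 and 9.31 FPKM. Si-FIBP#2 samples were at 11.5, 12.45 and 11.3 FPKM. The Si-FIBP#2 samples were above all others, whereas Si-FIBP#1 and Scramble overlapped. The log2 change was 0.47 (SE 0.11, adjusted p = 0.0054) after Si-FIBP#2, a rise of less than 2-fold to 142% of Scramble. After Si-FIBP#1 it was 0.078, with an interval of -0.16 to 0.32 (adjusted p = 0.584). The difference between the siRNAs, 0.39 (interval 0.15 to 0.64), had an adjusted p of 0.0376. That p rose to between 0.054 and 0.12 when any one of the 6 depleted samples was left out, and to 0.104 with Ensembl transcripts alone. IL6 (ENSG00000136244, chr7:22725884-22732002, + strand) was listed at 0 in all 9 samples, where a count of 0 allows up to 3 fragments in a library, counting error only.

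As a gene sum, GDF15 (ENSG00000130513, chr19:18374731-18389176, + strand) parted the siRNAs. It was at 2.19, 2.68 and 1.91 FPKM in Scramble. After Si-FIBP#1 it was at 0.48, 0.54 and 0.50 FPKM. Under Si-FIBP#2 the values were 2.64, 1.79 and 1.39 FPKM. The Si-FIBP#1 samples lay far below all others and close together, whereas the Si-FIBP#2 samples overlapped Scramble. In estimated fragments this was 37.1 to 53.7 in Scramble, 7.97 to 10.1 after Si-FIBP#1 and 25.1 to 41.96 after Si-FIBP#2. The mean after Si-FIBP#1 was 22.4% of Scramble, and the log2 change was -1.11 (SE 0.17, adjusted p = 5.3e-04). After Si-FIBP#2 the mean was 85.8% of Scramble, and the log2 change was -0.16, with an interval of -0.54 to 0.21 (adjusted p = 0.449). Without Si-FIBP#2 replicate 1 it was -0.33 (adjusted p = 0.116), without Si-FIBP#2 replicate 3 -0.026 (adjusted p = 0.916) and without Scramble replicate 2 -0.074 (adjusted p = 0.783).

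Tested directly, GDF15 was higher after Si-FIBP#2 than after Si-FIBP#1 by 0.94 on the log2 scale (SE 0.17, interval 0.57 to 1.32, adjusted p = 0.0064). That difference is not independent of the filter, which no Si-FIBP#1 sample of GDF15 helped to meet. None of the 4 cytokine genes was called at 2-fold between the siRNAs, where 0.267% of all genes were called higher and 0.294% lower. At an adjusted p under 0.05 alone, GDF15 and LIF were higher and none lower, against 9.58% and 5.8% of all genes. Without Si-FIBP#2 replicate 3 the difference in GDF15 was 1.08, past 2-fold, as it was in TPM (1.07) and with a pseudocount of 0.1 (1.70). The main coding transcript of GDF15, ENST00000252809, was at 2.15 ± 0.33 FPKM in Scramble, 0.33 ± 0.067 after Si-FIBP#1 and 1.23 ± 0.47 after Si-FIBP#2 (SD, n = 3). In single samples it was at 2.02, 2.53 and 1.91 FPKM in Scramble and at 1.70, 0.77 and 1.21 after Si-FIBP#2, so that here, unlike for the gene sum, all Si-FIBP#2 samples lay below Scramble. The rest of the sum came from ENST00000595973 and ENST00000597765, neither above 0.55 FPKM in any sample. In Scramble, Si-FIBP#1 and Si-FIBP#2 the means were 0.057, 0.17 and 0.39 FPKM for the former and 0.05, 0 and 0.32 for the latter. The mean of the main coding transcript after Si-FIBP#2 was 57.0% of Scramble. Its log2 change was -0.52 (interval -0.95 to -0.089, adjusted p = 0.0923), after -1.24 (adjusted p = 0.0025) with Si-FIBP#1. At the level of this transcript, the difference between the siRNAs was 0.72 (adjusted p = 0.0918).

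Taking both siRNAs as one contrast with Scramble, CXCL2 was called lower, at -1.25 (adjusted p = 2.7e-05), where 2.45% of all genes were called lower and 2.36% higher. GDF15 fell by 0.64 on the log2 scale (adjusted p = 0.0048) and CXCL1 by 0.41 (adjusted p = 0.0203). The contrast averages the siRNAs, so a change in it need not be shared by both. For GDF15 it averages -1.11 after Si-FIBP#1 and -0.16 after Si-FIBP#2, which differed in the direct test. At a pseudocount of 0.1 the change of GDF15 was -1.10. For CXCL1 the adjusted p was 0.0836 without Scramble replicate 3 and 0.0589 without the filter on low values. At an adjusted p under 0.05 alone 3 fell and 1 rose, against 20.3% and 32.6% of all genes. LIF rose by 0.27 (adjusted p = 0.032), but without Scramble replicate 3 by 0.16 (adjusted p = 0.153), and over all alternatives its adjusted p reached 0.216. The LIF value averages 0.078 after Si-FIBP#1 and 0.47 after Si-FIBP#2.

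The receptors of these ligands split into those that passed the filter and those at or near 0. CXCR2, CCR2, GFRAL and the scavenger ACKR1 were listed at 0 in every sample, CXCR1 at no more than 0.02 and ACKR2 at no more than 0.27 FPKM. Of 11 receptor genes, 5 were tested, LIFR only because its depleted samples reached 1 FPKM. After Si-FIBP#1, 2 rose, 1 fell and 2 did not pass, with a median log2 change of 0.23. After Si-FIBP#2, 3 rose, 1 fell and 1 did not pass, with a median of 0.59. LIFR is among the genes that rose with each siRNA, and the median after Si-FIBP#2 is its own value. These counts and medians are therefore not independent of the filter. Over all genes tested, 27.8% rose and 19.9% fell after Si-FIBP#1 (median 0.073), and 31.1% rose and 17.7% fell after Si-FIBP#2 (median 0.11), which is the background for the lists that follow as well. No receptor was called at 2-fold, but LIFR passed it with both siRNAs at a pseudocount of 0.1 in place of 1 (1.005 and 1.02) and IL6ST after Si-FIBP#1 under median ratio scaling (-1.01).

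IL1R1, the signalling receptor of interleukin 1, was at 1.36, 1.13 and 1.35 FPKM in Scramble. Si-FIBP#1 samples were at 2.39, 2.62 and 2.95, and those of Si-FIBP#2 at 2.84, 4.11 and 3.68 FPKM. Every depleted sample was above every Scramble sample. On the log2 scale the change was 0.68 (SE 0.13, adjusted p = 0.0021) after Si-FIBP#1 and 0.99 (SE 0.13, adjusted p = 2.3e-04) after Si-FIBP#2. The latter passed 2-fold without Scramble replicate 1 (1.01), Scramble replicate 3 (1.01) or Si-FIBP#2 replicate 1 (1.10), and also with a pseudocount of 0.1 (1.39), in TPM (1.06) and on coding Ensembl transcripts alone (1.02). Its partner IL1RAP rose after Si-FIBP#2, by 0.77 (adjusted p = 3.7e-04), and gave 0.23 (adjusted p = 0.120) after Si-FIBP#1. The latter was 0.35 (adjusted p = 0.0125) without Si-FIBP#1 replicate 1 and 0.13 (adjusted p = 0.366) without Si-FIBP#1 replicate 3. The difference between the siRNAs in IL1RAP was 0.55 (adjusted p = 0.0107).

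IL6ST, the chain shared by IL6 and LIF, was at 28.9, 27.4 and 33.0 FPKM in Scramble. Under Si-FIBP#1 the values were 13.7, 15.5 and 15.9, and Si-FIBP#2 samples were at 25.1, 26.0 and 24.5 FPKM. Both siRNA groups were below Scramble, Si-FIBP#1 by far the more. The log2 change was -0.94 (adjusted p = 1.8e-05) after Si-FIBP#1. After Si-FIBP#2 it was -0.23 (adjusted p = 0.043), which became -0.15 (adjusted p = 0.156) without Scramble replicate 3, did not pass without Scramble replicate 1, Si-FIBP#1 replicate 2 or any one Si-FIBP#2 sample (adjusted p 0.055 to 0.113), and was 0.067 (adjusted p = 0.582) on coding Ensembl transcripts alone. The difference between the siRNAs was 0.71 (interval 0.53 to 0.90, adjusted p = 8.7e-04). LIFR, which pairs with IL6ST to bind LIF, rose by 0.58 (adjusted p = 0.0030) and 0.59 (adjusted p = 0.0027), from 0.67 to 0.83 FPKM in Scramble to 1.56 to 1.85 FPKM after depletion. LIFR met the filter only through the depleted samples, where it was higher, so its rise is not independent of the filter. IL6R did not pass against Scramble, at -0.15 (adjusted p = 0.506) and 0.45 (adjusted p = 0.055). The second passed without Scramble replicate 1 (0.61, adjusted p = 0.0177), on coding Ensembl transcripts alone (0.55, adjusted p = 0.0064) and without a mean-variance trend (adjusted p = 0.0387). Between the siRNAs IL6R differed by 0.60 (interval 0.21 to 0.99, adjusted p = 0.0448), which did not pass when any one of the 6 depleted samples was left out (adjusted p 0.066 to 0.147), nor without Scramble replicate 2 (0.057) or 3 (0.058). This difference also did not pass with a replicate block (0.058), under median ratio scaling (0.051) or on Ensembl transcripts alone (0.053). The same held at a pseudocount of 0.1 (0.054), with only the groups compared (0.053) and without the filter (0.11).

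**Figure D4:**
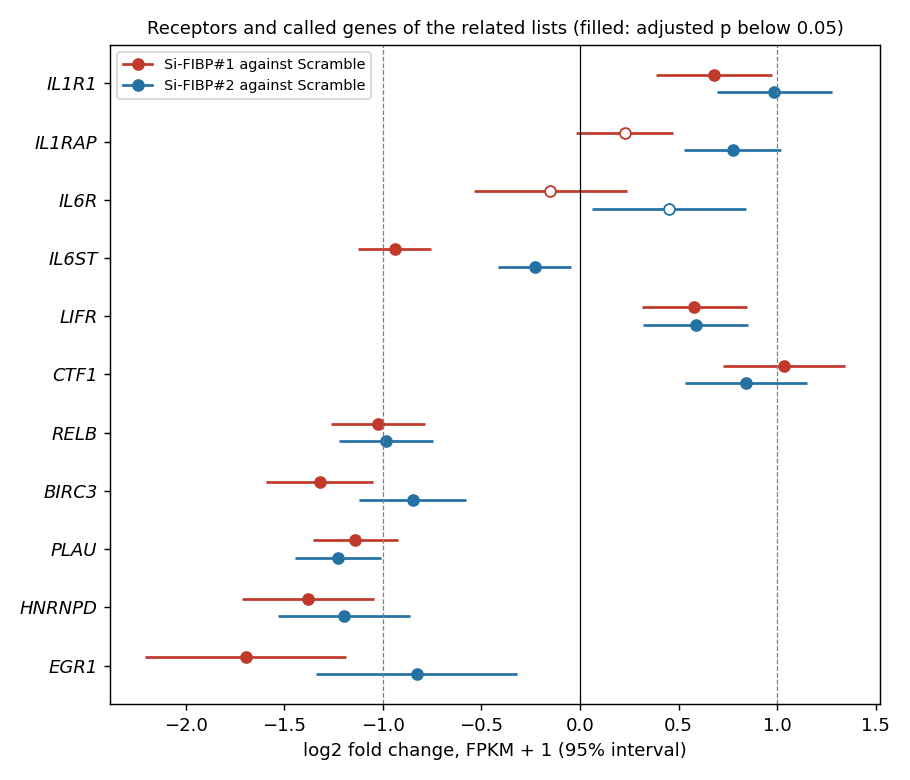
log2 fold change on the FPKM + 1 scale against Scramble, with the 95% interval (bars), of the 5 tested receptors and 6 genes of the related lists called with either siRNA; filled points have an adjusted p below 0.05 and dashed lines mark 2-fold. IL1R1, LIFR and CTF1 lie right of 0 with both siRNAs and RELB, BIRC3, PLAU, HNRNPD and EGR1 left of 0, whereas IL6ST lies further left after Si-FIBP#1 than after Si-FIBP#2.

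Among genes of the NF-kB pathway itself, 1 was called at 2-fold. Of 20 subunits, kinases and inhibitors, 19 were tested. After Si-FIBP#1, 3 rose and 7 fell, with a median of -0.12, and after Si-FIBP#2, 2 rose and 3 fell, with a median of 0.016. RELB, a subunit of the alternative NF-kB pathway and itself a known NF-kB target, was the one gene of this list called. It was at 29.1, 27.9 and 24.0 FPKM in Scramble, and at 11.2 to 14.2 FPKM in the 6 depleted samples, with no overlap. Its log2 change was -1.03 (adjusted p = 5.0e-05) after Si-FIBP#1 and -0.98 (adjusted p = 6.7e-05) after Si-FIBP#2. After Si-FIBP#1 it was -0.97 without Scramble replicate 1 and -0.98 without Si-FIBP#1 replicate 3, in both cases under 2-fold. After Si-FIBP#2 it passed 2-fold without Scramble replicate 3 (-1.06), Si-FIBP#2 replicate 1 (-1.03) or Si-FIBP#2 replicate 2 (-1.04), under median ratio scaling (-1.10), at a pseudocount of 0.1 (-1.03) and on coding Ensembl transcripts alone (-1.05).

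Of 16 NF-kB response genes other than cytokines, 12 were tested. With either siRNA 1 rose and 4 fell, with medians of -0.15 and -0.038. PLAU, the urokinase protease, was at 210 to 227 FPKM in Scramble and at 81.8 to 111 FPKM after depletion, with changes of -1.14 (adjusted p = 1.5e-05) and -1.23 (adjusted p = 1.1e-05). BIRC3, an inhibitor of cell death, was at 15.9 to 17.6 FPKM in Scramble, 5.56 to 6.55 after Si-FIBP#1 and 7.13 to 10.3 after Si-FIBP#2. Its log2 change was -1.32 (adjusted p = 2.4e-05) and -0.85 (adjusted p = 3.7e-04). ICAM1, a gene of this list named after its values were seen, went the other way. It was at 2.5 to 2.95 FPKM in Scramble, 3.35 to 3.77 after Si-FIBP#1 and 4.62 to 5.95 after Si-FIBP#2.

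All 9 factors that control the decay of cytokine mRNA were tested. After Si-FIBP#1, 1 rose and 3 fell, with a median of -0.083, and after Si-FIBP#2, 1 rose and 4 fell, with a median of -0.18. HNRNPD (AUF1), which binds AU-rich elements in such mRNAs, was called lower with both siRNAs. It was at 320 to 352 FPKM in Scramble and at 110 to 172 FPKM after depletion. On the log2 scale the change was -1.38 (adjusted p = 6.8e-05) and -1.20 (adjusted p = 1.7e-04). Without Si-FIBP#2 replicate 2 the second was -0.99.

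Among 8 C/EBP and stress factors known to act on GDF15 or IL6, 6 fell and none rose after Si-FIBP#1 (median -0.41), and 2 fell and 1 rose after Si-FIBP#2 (median -0.084). Among all genes 19.9% fell and 27.8% rose after Si-FIBP#1, and 17.7% fell and 31.1% rose after Si-FIBP#2. EGR1, an immediate early transcription factor, was at 8.45 to 9.35 FPKM in Scramble, 1.63 to 2.35 after Si-FIBP#1 and 3.22 to 7.55 after Si-FIBP#2. Its log2 change was -1.70 (adjusted p = 2.5e-04) and -0.83 (adjusted p = 0.0133), and the latter was -1.13 without Si-FIBP#2 replicate 2. The siRNAs differed by 0.87 (adjusted p = 0.031), which did not pass without Si-FIBP#1 replicate 1 (adjusted p = 0.103), replicate 2 (0.068) or replicate 3 (0.056), or without Si-FIBP#2 replicate 3 (0.054), and which ran from 0.56 without Si-FIBP#2 replicate 2 to 1.07 without Si-FIBP#2 replicate 1. With a pseudocount of 0.1 it was 1.11. DDIT3 and ATF4, chosen after their values were seen, are factors of the integrated stress response. DDIT3 was at 17.4 to 17.9 FPKM in Scramble, 12.3 to 13.7 after Si-FIBP#1 and 16.7 to 18.5 after Si-FIBP#2, and it differed between the siRNAs by 0.43 (adjusted p = 0.0031). ATF4 fell with both, by 0.75 (adjusted p = 3.9e-06) and 0.52 (adjusted p = 3.7e-05).

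Of 26 other cytokines and chemokines, 7 were tested. After Si-FIBP#1, 3 rose and 2 fell, and after Si-FIBP#2, 2 rose and 2 fell, with medians of 0.19 and -0.0023. CTF1 (cardiotrophin 1), another ligand of the IL6ST family, was called higher after Si-FIBP#1. It was at 2.04, 2.14 and 1.81 FPKM in Scramble, 6.50, 5.03 and 4.10 after Si-FIBP#1, and 4.11, 4.27 and 4.72 after Si-FIBP#2. The log2 change was 1.03 (adjusted p = 2.4e-04) and 0.84 (adjusted p = 8.3e-04). With a pseudocount of 0.1 the second was 1.09. The first was 0.98 under median ratio scaling, 0.99 without Scramble replicate 3, 0.89 without Si-FIBP#1 replicate 1, and 0.17 (adjusted p = 0.597) on Ensembl transcripts alone. On those transcripts the second was 0.52 (adjusted p = 0.0905), so neither rise of CTF1 passed. CXCL16, CLCF1 and IL32 are named after their values were seen. CXCL16, a chemokine, was at 2.03, 2.43 and 3.04 FPKM in Scramble and at 5.09, 3.42 and 4.74 after Si-FIBP#1. After Si-FIBP#2 it was at 4.56, 5.07 and 2.99 FPKM, which overlapped Scramble. Its means were 177% and 168% of Scramble. CLCF1 and IL32 were the 2 genes of this list that fell. CLCF1, a further ligand that signals through IL6ST, was at 5.67, 4.70 and 4.49 FPKM in Scramble, 2.01, 2.48 and 2.29 after Si-FIBP#1, and 2.52, 2.18 and 2.13 after Si-FIBP#2, with no overlap. It fell by 0.87 (adjusted p = 2.2e-04) and 0.86 (adjusted p = 2.3e-04) on the log2 scale, and with a pseudocount of 0.1 its changes of -1.10 and -1.08 passed 2-fold. IL32, a proinflammatory cytokine, was at 11.1 to 11.7 FPKM in Scramble, 4.32 to 5.86 after Si-FIBP#1 and 6.56 to 10.5 after Si-FIBP#2. Its log2 change was -0.99 (adjusted p = 4.8e-04) and -0.41 (adjusted p = 0.043). The first passed 2-fold without Scramble replicate 1 (-1.002) or 2 (-1.0005) and without Si-FIBP#1 replicate 1 (-1.06) or 2 (-1.03), as well as with a pseudocount of 0.1 (-1.11), in TPM (-1.06), under median ratio scaling (-1.06) and on coding Ensembl transcripts alone (-1.03). The second did not pass without any one Scramble sample, Si-FIBP#1 replicate 2, Si-FIBP#2 replicate 1 or Si-FIBP#2 replicate 3 (adjusted p 0.057 to 0.146), and it was -0.26 without the last of these. Of the 7 interleukin 1 antagonists, decoys and processing genes, 2 were tested, and 1 rose with either siRNA, with medians of 0.31 and 0.37.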

How the data were processed

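RNA-seq of 9 H1299 samples was used, 3 per group, grouped by their labels. The authors deposited 1 table of transcript values per sample. The unit was taken to be FPKM from the values, rounded to 2 decimals, and HISAT2 and StringTie are named in the submitters' processing notes; versions, genome build and annotation are not given in the sources used here. The tables hold 244443 transcripts, of which 14956 were assembled from the reads.

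FPKM were summed per gene. A gene was tested when 3 or more samples had 1 FPKM or more, on log2(FPKM + 1) with limma 3.58.1 in R 4.3.3 (1 fit over 3 groups, mean-variance trend, two-sided, Benjamini-Hochberg over 14985 genes). On simulated data, 97.5% and 97% of 200 changed genes were recovered for Si-FIBP#1 and Si-FIBP#2. The planted changes were larger than most reported here. They lay only in genes of a higher level than GDF15, IL1R1, LIFR, CTF1 and IL6R. The rates therefore do not measure power for such low genes or for smaller changes. Depth was estimated from the step that 1 fragment makes in the FPKM of genes with a single transcript; it limits genes of a few fragments. The genes and lists were chosen with earlier results of these data known. The text names the 10 genes, their receptors, and genes of the other lists called with either siRNA or between them, of which 1 is not reported here. Coordinates are from GENCODE release 29 and promoters from RefSeq (GRCh38.p14), with Python 3.11.15. The alternatives were other pseudocounts, filters, scalings, transcript sets, sample sets, a fit without trend, a replicate block and leaving out each sample. The entries for LIF and CCL2 promoters were not used here.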

Additional observations from a re-analysis of the deposited data

Results flagged for a closer look

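The response of GDF15 differed between the siRNAs in a direct test, with Si-FIBP#2 higher than Si-FIBP#1 by 0.94 on the log2 scale (limma, adjusted p = 0.0064, higher in 3 of 3 samples). GDF15 met the filter only through its Scramble and Si-FIBP#2 samples, so this difference is not independent of the filter. In the fit over transcripts, the main coding transcript of GDF15 differed by 0.72 (adjusted p = 0.0918). LIF differed in the direct test by 0.39 (adjusted p = 0.0376), and all 3 Si-FIBP#2 samples exceeded all 3 Si-FIBP#1 samples. The LIF difference did not pass when any one depleted sample was left out (adjusted p 0.054 to 0.12), nor with Ensembl transcripts alone (0.104). No explanation was tested.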

How the results depend on the processing

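Each result was recomputed under up to 20 alternatives, 1 of which, the sum over coding Ensembl transcripts, was chosen after seeing the data, as was the fit over transcripts. CXCL2 stayed negative against Scramble in every one, at -1.35 to -0.98 for Si-FIBP#1 and -1.35 to -1.03 for Si-FIBP#2, and GDF15 with Si-FIBP#1 ran from -1.95 to -1.02. Directions that turned were of small values, and the cause was not tested. LIF with Si-FIBP#1 was -0.0012 with Ensembl or coding Ensembl transcripts alone and ran from -0.035 (without Scramble replicate 3) to 0.16 as single samples were left out. CXCL2 between the siRNAs was -0.15 and -0.12 with those transcript sets, and -0.063 to 0.24 as single samples were left out (-0.063 without Si-FIBP#2 replicate 1, -0.033 without replicate 3). With Si-FIBP#1, IL6R ran from -0.23 to 0.0066, the latter without Scramble replicate 1. With Si-FIBP#2, IL6ST was 0.067 on coding transcripts, and DDIT3 ran from -0.040 to 0.029 with single samples left out, at 0.0071 without Scramble replicate 2 and 0.029 without Si-FIBP#2 replicate 1.

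Counts of called genes moved with the pseudocount, the filter and the fold limit. Higher calls with Si-FIBP#1 were 382, but 849 with a pseudocount of 0.1, 249 with a filter of 5 FPKM, 252 on coding transcripts and 4170 with no fold limit, where lower calls went from 466 to 2976. With Si-FIBP#2, 438 higher became 953, 287, 289 and 4653, and 319 lower became 2656 with no fold limit. For both siRNAs together, 354 higher became 891 with a pseudocount of 0.1, 226 on coding transcripts and 4892 with no fold limit, and 367 lower became 3046. Between the siRNAs, 40 higher became 105 with a pseudocount of 0.1, 64 in TPM and 1435 with no fold limit, and 44 lower became 67 with a pseudocount of 0.1 and 869 with no fold limit. Leaving out single samples gave 39 to 75 higher, the latter without Si-FIBP#2 replicate 2, and 35 to 57 lower.

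Of the cytokine genes, 1 in place of 2 was called lower with Si-FIBP#1 under the 5 FPKM filter, where GDF15 was not tested, and on Ensembl transcripts. With no fold limit, Si-FIBP#2 gave 1 higher and 2 lower, both siRNAs together 1 higher and 3 lower, and the siRNAs differed in 2, both higher. A pseudocount of 0.1 gave 2 lower for both siRNAs together. Between the siRNAs, 1 was called higher with a pseudocount of 0.1, in TPM and without Si-FIBP#2 replicate 3, and leaving out single samples gave 0 to 1.

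Scaling by median ratios moved the median of all genes from 0.073 and 0.11 to 0.0072 and 0.0090. It moved the share of calls that were higher from 57.9% to 43.2% for Si-FIBP#2, and that for both siRNAs from 49.1% to 37.4%; between the siRNAs, TPM moved it from 47.6% to 60.4%, and median ratios to 38.8%. Under median ratios LIF with Si-FIBP#2 was 0.36 (adjusted p = 0.017). Any pairing by replicate number was weak, with correlations of deviations from -0.057 to 0.10. A sample fitted its own number best in 10 of 18 cases, with 3 samples to choose from in each. With a replicate block, Si-FIBP#1 gave 384 genes higher and 469 lower, Si-FIBP#2 439 and 321, and no call of a cytokine gene changed.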
